A study of Mus musculus with 46 samples.

Results

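The collagen chain genes encode the α chains that wind into triple helices, the collagens, the main fibrous proteins of the extracellular matrix. They were taken as every gene of the deposited expression table whose symbol has the form Col, a type number, the letter a and a chain number, which gave 44 of 53465 genes. By structure, 11 were fibrillar, 8 belonged to basement membranes or their border with the interstitium, 9 formed networks or beaded filaments, 9 were FACIT collagens (fibril-associated collagens with interrupted triple helices) and 7 were of other types. They were followed in 4 cell populations sorted by flow cytometry from kidneys of wild type male C57BL/6 mice, aged 8 to 12 weeks, after 3 kinds of surgery. The populations were PDGFRB+ stromal cells, CD31+ endothelial cells, F4/80+ macrophages and LTL+ proximal tubule (PT) cells, LTL being a lectin that binds the brush border. The surgeries were a sham operation, UUO (unilateral ureteric obstruction, in which tying the ureter dilates and scars the kidney) and rUUO (the same obstruction, then reversed by reimplanting the ureter, with kidneys taken 14 days after reversal). The series' text names UUO kidneys of day 2 and day 7, and the sample labels used here give no day, so the UUO groups cannot be assigned to either. Sham, UUO and rUUO samples numbered 4, 4 and 4 for stromal cells, 4, 3 and 4 for endothelial cells, 4, 4 and 3 for macrophages and 3, 4 and 3 for PT cells. The title of PT UUO 2 holds both SHAM and UUO, and it was placed by its treatment label, UUO. The series' design gives 4 mice a group, and the labels do not tie a sample to a mouse. A p-value here sets a difference against the spread between these samples. Comparisons between populations treated the samples as independent, which the labels cannot show. All animals were wild type, so each population is what its surface marker selects, which for PDGFRB takes in fibroblasts, pericytes and mesangial cells together.

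Fibrillar collagens (types I, III and V here) build the banded fibrils that accumulate in scarred kidney, with type I made of Col1a1 and Col1a2 chains, type III of Col3a1 alone, and type V nucleating the fibril. Type IV collagen is the sheet of every basement membrane, in which the α1 and α2 chains are general, while the α3, α4 and α5 chains form the mature network of the glomerular filter. In the glomerulus the podocyte is the cell known for making that α3α4α5 network. Type VI collagen forms beaded filaments around cells, type VIII a hexagonal lattice, and the FACIT collagens XII, XIV and XVI sit on the surface of fibrils.

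Values were FPKM, fragments scaled for transcript length and for the number of fragments mapped, which can be compared between genes. The FPKM of a sample summed to between 586929 and 884982, and 9502 to 14464 genes reached 1 FPKM. Depth in reads is unknown, so no counting interval is given. Each population carried its own markers: the summed FPKM of 10 stromal markers was 1029 to 1556 in stromal sham samples and at most 136 in the other sham samples, 10 endothelial markers summed to 3381 to 4442 in endothelial sham samples, 10 macrophage markers to 8329 to 10525 in macrophage sham samples, and 10 PT markers to 2911 to 3882 in PT sham samples. None of these markers was at 0 throughout its own population. The 37 mitochondrial genes held 20.2% to 75.6% of a sample's FPKM, with 34.0% to 45.8% in stromal sham, 21.5% to 26.4% in stromal UUO and 20.2% to 25.9% in stromal rUUO samples. Because FPKM are shares of a sample, the fits were also run on values rescaled without these genes.

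Upstream sequences were compared because many members moved together. The RefSeq promoter table (GRCm38.p6) held 38 windows of 300 bases, 250 before and 50 after a start, for 35 of the 44 genes. Among them, 23 windows (60.5%) held the GC box GGGCGG on either strand (CCGCCC on the other), against 35.7% of all 32851 windows. The CCAAT box (CCAAT or ATTGG) was in 13 collagen windows (34.2%) and 37.4% of all windows, and TATAAA (or TTTATA) was in 5 (13.2%) and 13.6%. The last letters of ATTGG can be the first of GGGCGG, and a window holding both counts under each. Collagen windows were also richer in G and C, with a median of 59.0% over their upstream part against 52.4% over all, and a match is a description of letters only. The following stretches lie 5′ of the annotated start on the gene's own strand, outside every annotated exon, with motif letters in capitals and the rest in lower case. Col3a1 and Col5a1 are shown as fibrillar genes with and without a TATA-like motif, Col6a3 as a network gene with none of the motifs in this stretch, and the last as the gap between a pair of type IV genes that is transcribed outwards from both ends. They are chr1:45311418-45311537 (plus strand, directly before Col3a1), chr2:27886305-27886424 (plus strand, 72.5% G and C, before Col5a1), chr1:90843972-90844091 (minus strand, 63.3%, before Col6a3), and chr1:82586850-82586920 (minus strand, 69.0%), the 71 bases between the start of Col4a4 and the start of Col4a3 on the opposite strand.
Col3a1 upstream: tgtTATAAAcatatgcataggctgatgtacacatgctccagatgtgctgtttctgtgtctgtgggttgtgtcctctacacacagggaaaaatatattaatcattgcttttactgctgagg
Col5a1 upstream: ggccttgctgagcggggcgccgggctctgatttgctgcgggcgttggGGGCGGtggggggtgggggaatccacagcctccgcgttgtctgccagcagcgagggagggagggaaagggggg
Col6a3 upstream: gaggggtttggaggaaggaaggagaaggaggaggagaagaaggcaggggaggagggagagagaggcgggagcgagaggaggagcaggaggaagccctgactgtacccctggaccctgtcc
Col4a4 to Col4a3 interval: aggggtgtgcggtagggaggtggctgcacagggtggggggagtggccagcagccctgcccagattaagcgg

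In the sham samples collagen expression was concentrated in stromal cells. Of 31 members with a sham mean of at least 1 FPKM, 25 were highest in stromal cells, 3 (Col10a1, Col27a1 and Col9a3, all low) in macrophages, 2 (Col13a1 and Col15a1) in endothelial cells and 1 (Col4a3) in PT cells. Over all 12 groups 35 of the 44 members reached a mean of 1 FPKM somewhere, and 9 (Col2a1, Col9a1, Col9a2, Col11a2, Col17a1, Col19a1, Col20a1, Col22a1 and Col25a1, several of them known from cartilage, skin or nerve) stayed below it in every group. In stromal sham cells 17 members had a mean of at least 10 FPKM, led by Col3a1 (428 ± 257 FPKM, SD, n = 4), Col1a2 (216 ± 143) and Col1a1 (174 ± 121), then Col4a2 (113 ± 24.97) and Col4a1 (103 ± 20.2). Stromal sham 3 stood above the other sham samples in Col3a1, Col1a2 and Col1a1, with a Col3a1 of 793 FPKM. Against endothelial sham cells, 19 of 22 members tested were higher in stromal sham cells and 0 lower, beside 14% of all 14204 genes called higher and 10.2% lower. Against macrophages 20 of 22 were higher and 0 lower (28% and 20.1% of all genes), and against PT cells 19 were higher and 0 lower (59.7% and 7.89%). The 22 members passed the filter (mean FPKM across the 15 sham samples not below 1), which a high stromal level can meet alone, so these counts are a description. The median difference over all genes was 0.08, 0.13 and 1.06 on the log2 scale. The largest differences were in Col3a1 (4.77, 5.08 and 5.59 against the 3 populations in that order), Col6a2 (4.75, 4.91 and 5.26) and, against endothelial cells, Col6a1 (4.40). Quantile normalization brought the all-gene median of the stromal and PT comparison from 1.06 to -0.02, and the same 22 members then split into 19 higher and 3 lower (Col27a1, Col4a3 and Col4a4, at -1.58, -1.20 and -1.22).

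A few genes departed from the stromal pattern. Col15a1, a basement membrane zone collagen of vessels and muscle, was at 51.8, 52.4, 98.6 and 132 FPKM in endothelial sham samples and 39.4, 43.2, 44.8 and 113 in stromal sham samples, which overlapped (log2 difference -0.50 ± 0.42 (SE), adjusted p = 0.441). Col14a1, a FACIT collagen, was at 39.0, 41.2, 44.5 and 46.4 FPKM in macrophage sham samples and 24.9, 32.0, 39.5 and 82.5 in stromal ones (-0.09 ± 0.29 (SE), adjusted p = 0.837). Col4a3 and Col4a4 did not differ detectably between stromal and PT sham cells (-0.11 ± 0.34 and 0.02 ± 0.28, adjusted p = 0.784 and 0.952), and Col4a3 was at 13.8, 15.9 and 15.9 FPKM in PT and 11.02, 12.1, 15.6 and 18.3 in stromal sham samples. Col27a1, a fibrillar collagen of low level, passed no comparison between stromal and other sham cells. Col13a1, a transmembrane collagen, was at 0.08, 1.48, 1.70 and 1.75 FPKM in endothelial sham samples and 0, 0.35, 0.46 and 0.53 in stromal ones. The heat map of group means shows these departures against the otherwise stromal pattern.

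**Figure D1:**
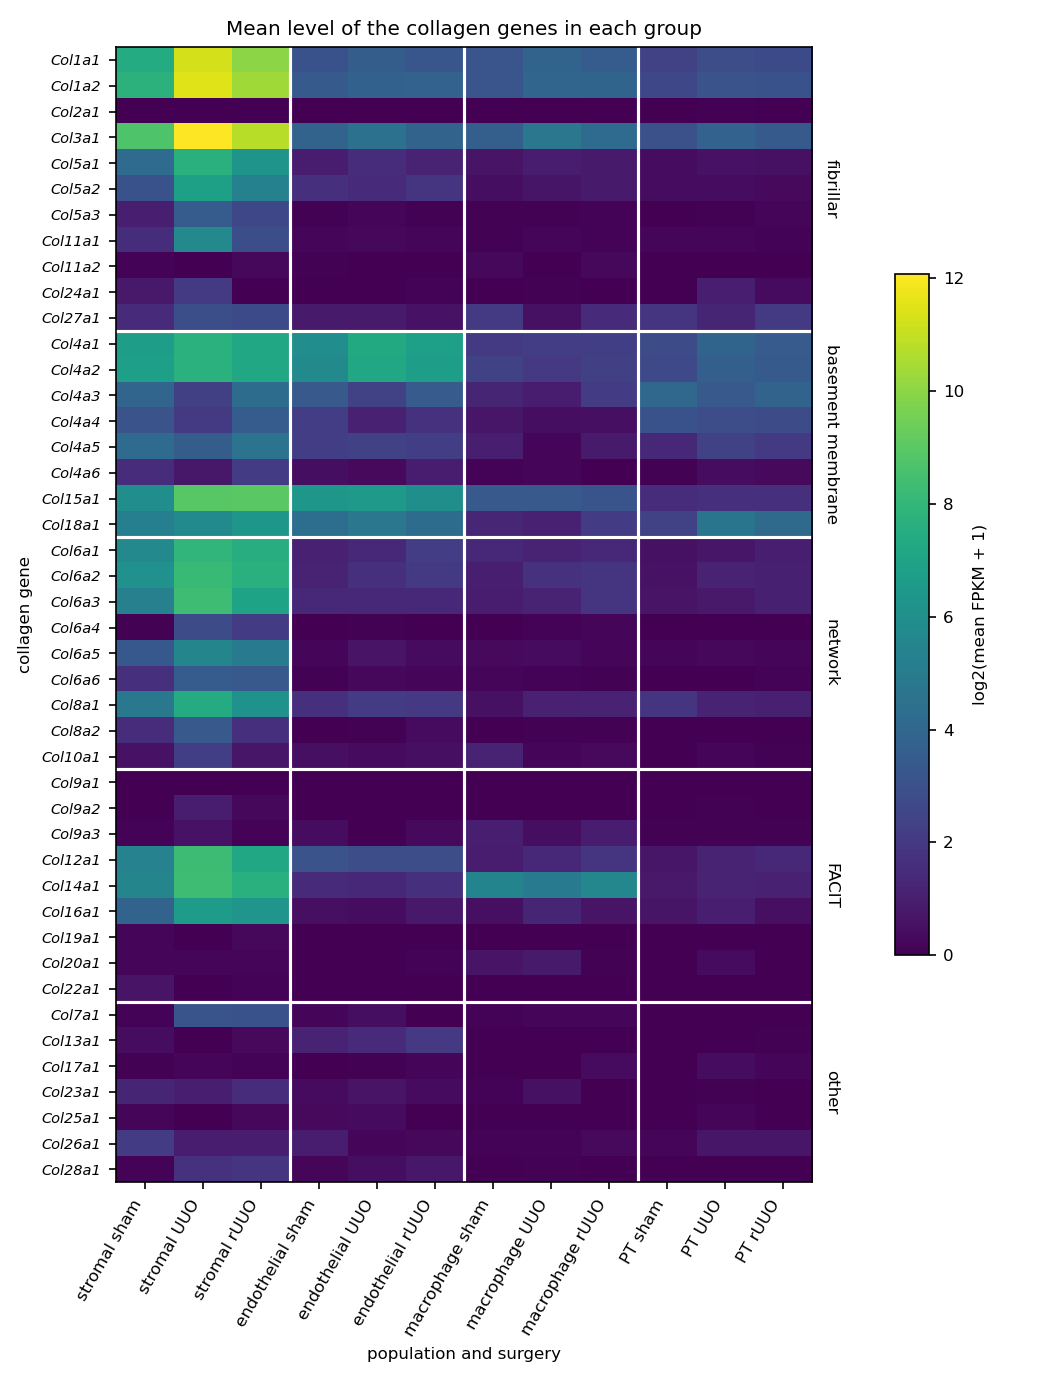
Mean level of each of the 44 collagen genes (rows, ordered by class) in the 12 groups (columns), as log2(mean FPKM + 1) on the colour scale. The 3 stromal columns hold the brightest cells, Col3a1 after UUO being the highest. Brighter cells of the other 9 columns include Col14a1 in macrophages, Col15a1 and the Col4a1 and Col4a2 pair in endothelial cells, and Col4a3 and Col18a1 in PT cells.

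After UUO the stromal cells carried far more collagen message. The FPKM of all 44 genes summed to 1097, 1433, 2570 and 913 in stromal sham samples 1 to 4, to between 10536 and 14806 in UUO samples and to between 5246 and 7264 in rUUO samples, and no sample of one surgery reached into the range of another. As a share of non-mitochondrial FPKM this was 0.370% ± 0.172 (SD, n = 4) in sham, 2.82% ± 0.28 in UUO and 1.31% ± 0.16 in rUUO samples. In these bulk samples, a change in the number of cells of one type and a change in RNA per cell cannot be told apart. With limma, 24 of 33 members tested rose in stromal cells after UUO and 3 fell, beside 13.4% of all 14033 genes that rose and 13% that fell, and the median change was 2.32 over the members and -0.07 over all genes on the log2 scale. All 9 fibrillar genes tested rose, as did 8 of 9 network genes, 3 of 3 FACIT genes, 3 of 8 basement membrane genes (2 fell) and 1 of 4 others (1 fell). The remaining 11 members had a mean under 1 FPKM over the stromal samples and were not tested. High values after surgery can meet this filter alone. Col6a4 had means of 0.04 FPKM in sham and 5.91 in UUO samples, and Col7a1 of 0.095 and 7.825. A gene that enters in this way can hardly fall, so these counts, also those by class, are a description. Rescaled without mitochondrial genes, 23 members rose and 4 fell (Col4a5 among them, at -0.85), with the all-gene median moving to -0.22.

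**Figure D2:**
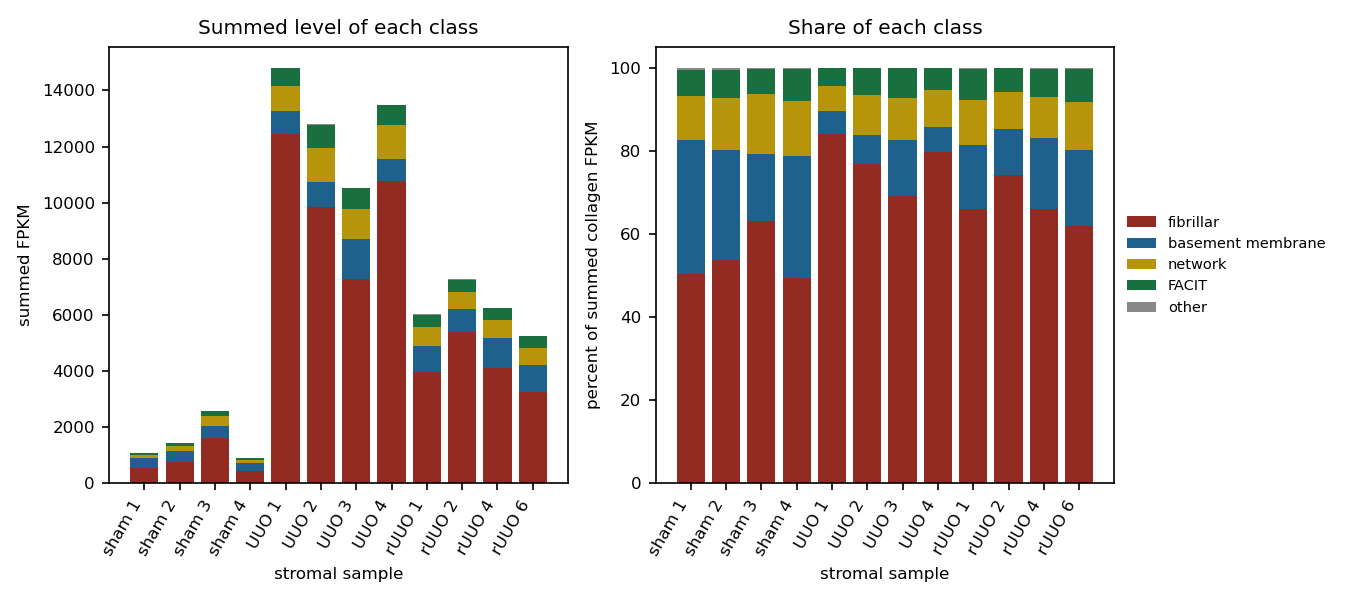
Summed FPKM of the 5 collagen classes in each of the 12 stromal samples (left, stacked bars from 0) and the same as percent of all collagen FPKM (right). The fibrillar part made up 49.4% to 63.1% of the sum in sham samples, 69.2% to 84.2% in UUO samples and 62.0% to 74.3% in rUUO samples, and the basement membrane part 16.1% to 32.3%, 5.31% to 13.5% and 11.1% to 18.2%.

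Fibrillar genes had the largest median change of the 5 classes, 3.59 on the log2 scale over the 9 tested, against 2.92 over 3 FACIT, 2.32 over 9 network and -0.15 over 8 basement membrane genes. Col1a1 (chr11:94936224-94953042, plus strand, GRCm38) was at 97.0, 106, 139.7 and 354 FPKM in the 4 stromal sham samples and at 1779.9, 2249, 2447 and 3577 in the 4 UUO samples. The 2 sets lay far apart, with 14.4-fold between the means and a log2 change of 4.01 ± 0.33 (SE), adjusted p = 4.79e-07. Col1a2, its partner in the type I heterotrimer, was at 123, 129, 188 and 426 in sham and 2207, 3035, 3078 and 3162 in UUO samples (3.90 ± 0.30, adjusted p = 3.06e-07). Col3a1 was at 211, 296, 413 and 793 in sham and 2964, 4102, 4932 and 5259 in UUO samples and was the highest collagen gene in every one of the 12 stromal samples (3.47 ± 0.32). The type V chains, which start fibrils, were lower in level. Col5a1, which rose, was at 10.5, 11.8, 16.4 and 30.8 in sham and 164, 193, 208 and 256 in UUO samples (3.59 ± 0.26). Col5a2 was at 4.98, 5.52, 7.22 and 11.3 in sham and 98.8, 116, 119.5 and 127 in UUO samples and rose too, with a 15.9-fold difference of means (3.87 ± 0.22 (SE), adjusted p = 2.54e-08). Col5a2 (chr1:45374321-45503282, minus strand) and Col3a1 (chr1:45311538-45349706, plus strand) are neighbours that end towards each other. Stromal sham 3 gave the highest sham value of all 5 of these genes, and the groups stayed apart with it included.

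The minor fibrillar chains followed. Col11a1, a partner of type V in hybrid fibrils, was at 1.32, 1.58, 2.04 and 3.00 FPKM in stromal sham samples and 8.65, 63.2, 65.0 and 67.5 in UUO samples (3.81 ± 0.50 (SE), adjusted p = 3.80e-05). UUO 4 lay at 8.65, apart from the other UUO samples and still above all sham samples. Col5a3, Col27a1 and Col24a1 were lower still and all rose by 2.52 for Col5a3 and 1.21 for Col24a1 on the log2 scale, with Col27a1 between them. The call on Col24a1 was lost in 5 of 8 fits that left out 1 sample, with adjusted p up to 0.0819. Col2a1 and Col11a2, the remaining fibrillar members, were not tested. The stromal marker list did not rise along with these genes: of its 10 genes 3 rose and 5 fell, and its sum was 672 to 1276 FPKM in UUO samples against 1029 to 1556 in sham samples. Gata3 had means of 108, 0.99 and 1.97 FPKM in stromal sham, UUO and rUUO samples, and Itga8 of 293, 11.1 and 16.7. Acta2 had means of 139, 413 and 255, and Pdgfra of 86.0, 135 and 139. The part of a changed mix of PDGFRB+ cells in the stromal collagen values was not tested.

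**Figure D3:**
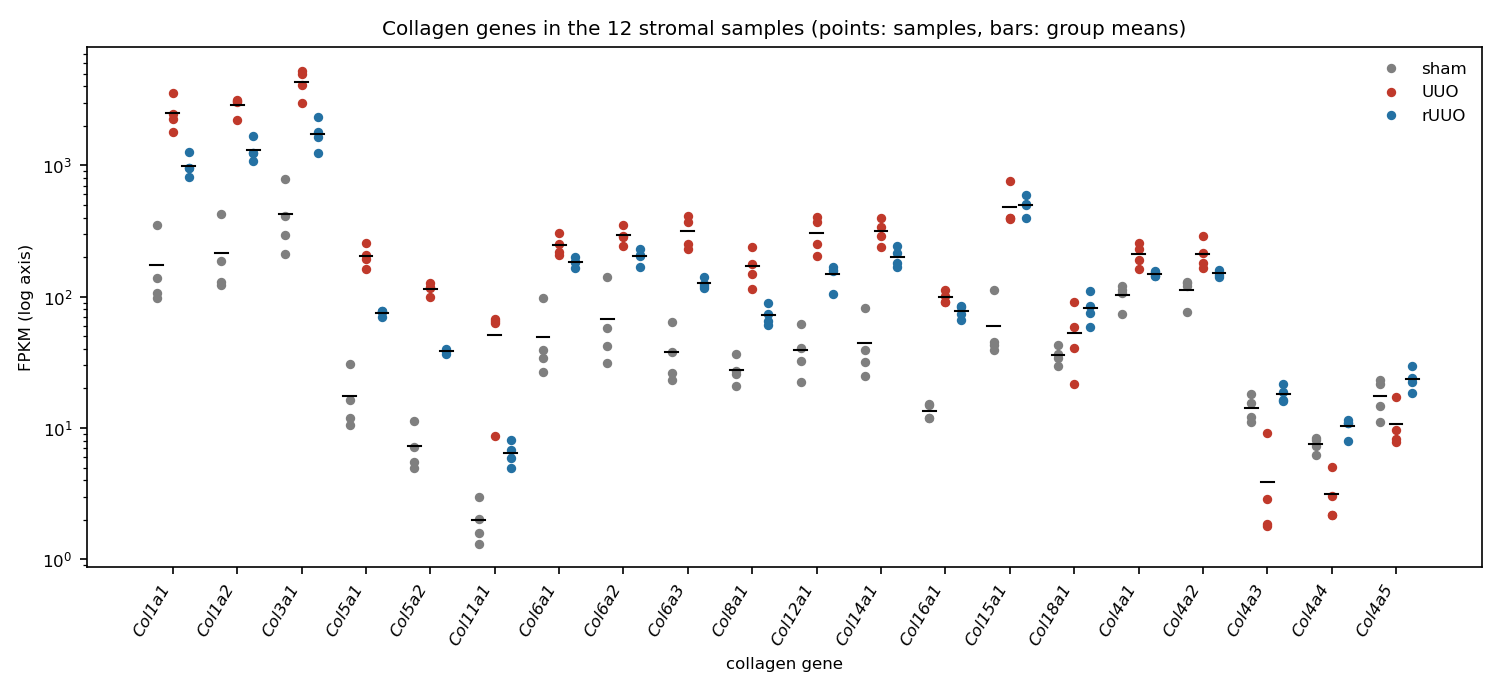
FPKM (log axis) of 20 collagen genes in the 12 stromal samples, 4 sham (grey), 4 UUO (red) and 4 rUUO (blue), each point a sample and each bar the group mean. From Col1a1 to Col15a1 the red points lie above the grey ones with the blue in between or level with the red, and for Col4a3, Col4a4 and Col4a5 the red points are the lowest group.

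The network collagens rose as a class too, 8 of 9 of them. Col6a3, the longest chain of type VI collagen, was at 23.3, 26.2, 37.6 and 64.6 FPKM in sham and 229.6, 253, 368 and 414 in UUO samples (3.10 ± 0.27, adjusted p = 8.57e-07). Col6a1 was at 26.8, 33.9, 39.3 and 98.6 in sham and 209, 219, 254 and 304 in UUO samples (2.46 ± 0.29), and Col6a2 at 31.3, 42.1, 57.7 and 142 in sham and 245, 287, 289.6 and 353 in UUO samples (2.32 ± 0.33). These 3 chains make up the standard type VI monomer, and their groups did not overlap. Col8a1, a lattice collagen of vessel walls, was at 20.9, 25.9, 27.2 and 36.7 in sham and 114, 148, 178 and 239.6 in UUO samples (2.55 ± 0.23). Its partner Col8a2 rose as well, from low levels (2.13 ± 0.47), although stromal sham 3, at 5.62, reached into the UUO range of 5.59 to 12.4 FPKM. Col6a4, Col6a6 and Col10a1, all of low level, rose by 2.40, 1.82 and 1.39, and the calls on Col6a6 and Col10a1 were each lost in 6 of 8 fits leaving out 1 sample. Col6a5 differed too much between samples to be called, with 2.52, 8.75, 33.5 and 131 FPKM in UUO samples (1.52 ± 0.89, adjusted p = 0.234).

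All 3 FACIT collagens that could be tested rose. Col12a1 was at 22.4, 32.5, 40.4 and 62.2 FPKM in stromal sham samples and 203, 251, 372 and 402 in UUO samples (2.97 ± 0.29, adjusted p = 1.94e-06). Col14a1 was at 24.9, 32.0, 39.5 and 82.5 in sham and 240.4, 292, 340.3 and 396 in UUO samples (2.92 ± 0.29). Col16a1 was at 11.9, 12.02, 15.0 and 15.1 in sham and 91.0, 91.9, 102 and 112 in UUO samples and varied little within a group (2.79 ± 0.17, adjusted p = 3.74e-08). None of the 3 had overlapping groups. Of the other types, Col7a1, the anchoring fibril collagen of skin, was at 0.01, 0.06, 0.06 and 0.25 FPKM in sham and 2.16, 3.10, 12.5 and 13.5 in UUO samples (2.70 ± 0.49). Col26a1 fell, being at 1.24, 3.73, 3.83 and 4.40 in sham and 0.03, 0.09, 0.94 and 2.63 in UUO samples (-1.28 ± 0.45, adjusted p = 0.0456), a call lost in 6 of 8 fits leaving out 1 sample.

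The basement membrane class was divided. Col15a1 rose like the interstitial collagens, at 39.4, 43.2, 44.8 and 113 FPKM in stromal sham and 387, 395, 396 and 758 in UUO samples (3.07 ± 0.30, adjusted p = 2.23e-06). Replicate 3 was the high sample in each of these groups, and the 2 groups were apart. Col4a1 and Col4a2, a pair of chr8:11198423-11312826 (minus strand) and chr8:11312805-11449287 (plus strand) that starts within 22 shared bases and forms the general α1α1α2 network, rose by less. Col4a1 was at 74.4, 106, 112 and 121 in sham and 162, 189, 231 and 258 in UUO samples (1.02 ± 0.18 (SE), adjusted p = 0.000617). Col4a2 was at 76.1, 121, 126 and 129.5 in sham and 164, 180.0, 214 and 289 in UUO samples (0.89 ± 0.20, adjusted p = 0.00367), a call that quantile normalization lost. Col18a1, the source of endostatin, was at 29.6, 34.0, 36.7 and 42.8 in sham and 21.8, 40.4, 58.6 and 90.4 in UUO samples, with the sham range inside the UUO range, and was not called (0.39 ± 0.33, adjusted p = 0.422).

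The chains of the glomerular network went the other way. Col4a3 (chr1:82586921-82722059, plus strand) was at 11.02, 12.1, 15.6 and 18.3 FPKM in stromal sham samples, 1.80, 1.85, 2.86 and 9.09 in UUO samples and 16.0, 16.2, 18.7 and 21.6 in rUUO samples. It fell after UUO (-1.84 ± 0.36 (SE), adjusted p = 0.00121) and rose from UUO to rUUO (2.18 ± 0.36 (SE), adjusted p = 0.00419), with every UUO sample below every other sample, UUO 3 being the high one. Col4a4, which starts 71 bases away on the opposite strand (the interval printed earlier), was at 6.21, 7.27, 8.17 and 8.40 FPKM in sham, 2.17, 2.19, 3.05 and 5.06 in UUO and 7.92, 10.95, 10.96 and 11.5 in rUUO samples. It fell by 1.09 on the log2 scale (adjusted p = 0.00777) and rose from UUO to rUUO (1.4997, adjusted p = 0.00844). Col4a5 and Col4a6, neighbours on the X chromosome, missed the threshold after UUO (-0.68 ± 0.29 and -0.73 ± 0.31, adjusted p = 0.0935 and 0.093). Both rose from UUO to rUUO (1.12 ± 0.29 and 1.31 ± 0.31), in calls lost in 7 and 5 of 8 fits leaving out 1 sample. Col4a5 was at 11.2, 14.8, 21.6 and 23.2 FPKM in sham, 7.77, 8.18, 9.72 and 17.3 in UUO and 18.5, 22.4, 24.1 and 29.5 in rUUO samples, with its UUO samples all below its rUUO samples. Of the exon bases of Col4a3, 563 of 9967 are shared with an antisense transcript, C430014B12Rik, and the library kit is not described as stranded, so reads there cannot be told apart.

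Podocyte markers moved with Col4a3 and Col4a4 in the same stromal samples. Of 8 podocyte markers tested, 4 fell after UUO (Nphs1, Podxl, Ptpro and Wt1, by 1.58, 2.73, 1.55 and 2.09 on the log2 scale) and 0 rose, and 3 rose from UUO to rUUO. Podxl was at 20.8 to 55.8 FPKM in sham samples, 2.79 to 5.94 in UUO samples and 19.8 to 38.8 in rUUO samples, and Wt1 at 45.6 to 78.6, 9.62 to 21.6 and 28.1 to 51.6 FPKM in the same groups. For both genes every UUO sample was below every sham and rUUO sample. The whole list summed to 237 to 332 FPKM in sham samples, 148 to 295 in UUO samples and 260.07 to 365 in rUUO samples, and none of its genes was at 0 throughout a group. Markers of thick limb, distal tubule and collecting duct fell in the same comparison, 7 of 8, with sums of 394 to 615 FPKM in sham samples, 34.8 to 66.8 in UUO samples and 58.4 to 105 in rUUO samples, and PT markers fell in 7 of 8 tested. The part of these cells in the Col4a3 and Col4a4 values was not tested.

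**Figure D4:**
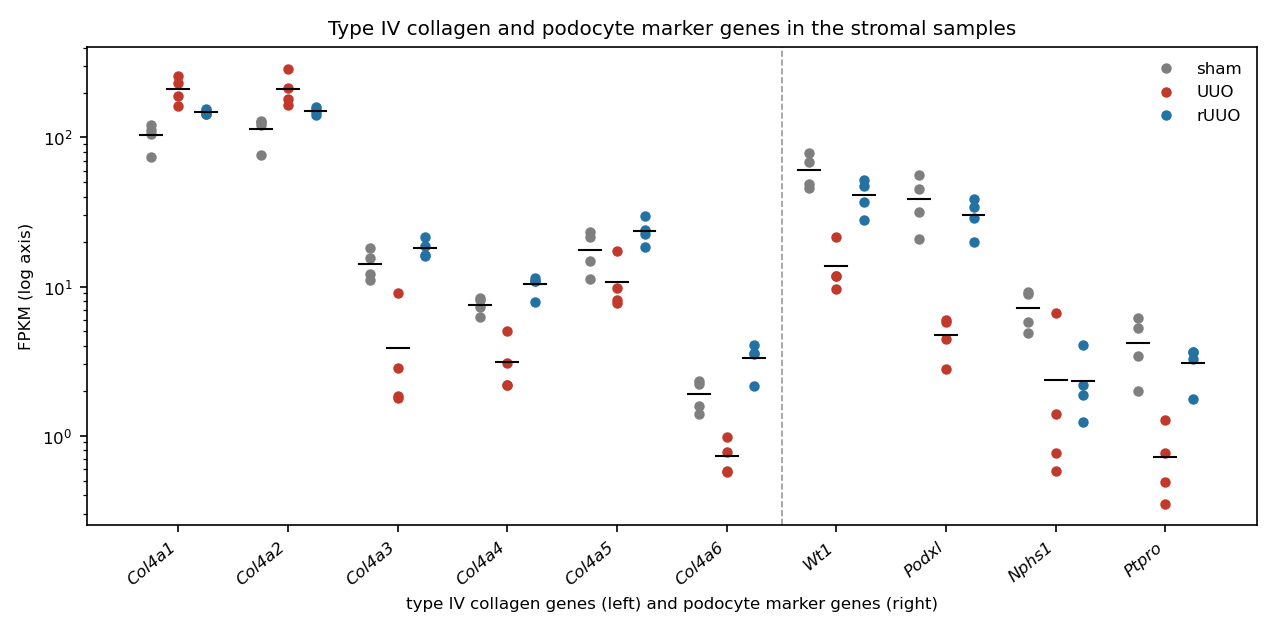
FPKM (log axis) of the 6 type IV collagen genes (left of the dashed line) and 4 podocyte markers (right) in the 4 sham (grey), 4 UUO (red) and 4 rUUO (blue) stromal samples, with bars at group means. Col4a1 and Col4a2 are highest in UUO samples, Col4a3 and Col4a4 lowest in UUO samples at 1.80 to 9.09 and 2.17 to 5.06 FPKM, and Wt1, Podxl and Ptpro are also lowest there.

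In rUUO stromal cells part of the fibrillar collagens were lower than in UUO, and most members were still above sham. The UUO day is unknown and rUUO kidneys were taken 14 days after reversal. Reversal and elapsed time therefore cannot be told apart. From UUO to rUUO, 9 of 33 members fell in stromal cells and 4 rose (the type IV chains Col4a3 to Col4a6), beside 1.22% of all genes that fell and 2.95% that rose, with a median change of -0.47 over the members and 0.19 over all genes. The count of 13 was 6 with no filter on low values, 3 with the replicate block and 12 when rescaled without mitochondrial genes (Col4a5 lost, adjusted p = 0.0516). Among the members called, the largest falls were in Col11a1, Col24a1 and Col5a2, while Col8a2 differed by -1.71 ± 0.47 and missed the threshold (adjusted p = 0.0537). Col11a1 was at 4.97, 5.89, 6.85 and 8.13 FPKM in rUUO samples (-2.47 ± 0.50 (SE), adjusted p = 0.0134), just under the lowest UUO sample. Col24a1 was at 1.14, 2.96, 4.06 and 4.69 in UUO samples and listed at 0, 0, 0.02 and 0.03 in rUUO samples, below the sham range of 0.18 to 1.10 (-1.96 ± 0.38, adjusted p = 0.0106). Col5a2 came to 36.9, 38.3, 38.9 and 39.99, in a narrow range (-1.55 ± 0.22, adjusted p = 0.00177). Col5a1 (69.4, 75.9, 77.1 and 77.8 FPKM), Col8a1 (60.4, 65.2, 73.4 and 89.5) and Col6a3 (116, 122, 126 and 142) fell by 1.42, 1.19 and 1.28 on the log2 scale. Col1a1 was at 809, 961, 962 and 1253 FPKM, Col1a2 at 1071, 1243, 1244 and 1685 and Col3a1 at 1236, 1635, 1785 and 2328. Each of these 3 was below every UUO sample and was called (-1.31 ± 0.33, -1.14 ± 0.30 and -1.31 ± 0.32, adjusted p = 0.0378, 0.0481 and 0.036), in calls that 7, 7 and 6 of 8 fits leaving out 1 sample lost. The count of 13 called members was 7 without UUO 2 and 8 without each of rUUO 1, rUUO 2 and rUUO 6.

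Against sham, 20 of 33 members were still higher in rUUO stromal cells and 0 lower, beside 11.6% of all genes higher and 5.57% lower, with a median of 1.64 over the members and 0.15 over all genes. Rescaled without mitochondrial genes, 17 were higher, with Col18a1, Col4a1 and Col6a4 lost (adjusted p = 0.0856, 0.29 and 0.0563). Called higher in the main scaling were 7 of 9 fibrillar, 3 of 8 basement membrane, 6 of 9 network, 3 of 3 FACIT and 1 of 4 other genes. Col15a1 was the member farthest above sham, at 398, 497, 510.0 and 597 FPKM (3.17 ± 0.30 (SE), adjusted p = 3.31e-06), and did not differ detectably from UUO (0.10 ± 0.30, adjusted p = 0.895). Col7a1 was at 4.37, 4.44, 7.53 and 13.0 FPKM (2.82 ± 0.49) and Col16a1 at 67.0, 74.0, 84.0 and 85.1 (2.44 ± 0.17), with changes from UUO of 0.11 and -0.35. The type I chains remained 2.70 (Col1a1) and 2.77 (Col1a2) above sham on the log2 scale. Col6a1 (167, 185, 185 and 199 FPKM), Col6a2 (167, 205, 207 and 229.9), Col12a1 (105, 157, 161 and 168) and Col14a1 (168, 179, 215 and 244) stayed above all sham samples, and none of these 4 was called between UUO and rUUO (adjusted p = 0.467, 0.393, 0.0581 and 0.228). Col18a1 was called here and not in UUO, at 58.9, 75.5, 85.1 and 109.6 FPKM (1.16 ± 0.33, adjusted p = 0.0231), while its change from UUO was not called (0.77 ± 0.33). Col4a1 was at 143, 144, 154 and 156 and Col4a2 at 142, 147, 155 and 160.3 FPKM (0.55 ± 0.18 and 0.44 ± 0.20, adjusted p = 0.0498 and 0.157). The calls on Col4a1, Col6a4, Col6a6 and Col18a1 were lost in 7, 7, 4 and 4 of 8 fits leaving out 1 sample. UUO and rUUO share the sham samples in these contrasts, so the lists are not independent.

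In endothelial cells the main fits called a pair of genes. Col4a1 was at 42.1, 55.9, 64.8 and 78.1 FPKM in endothelial sham, 145, 153 and 184 in UUO and 97.9, 98.5, 115 and 129 in rUUO samples. Col4a2 was at 39.3, 55.7, 55.9 and 56.1 in sham, 123, 137 and 176 in UUO and 90.2, 103, 112 and 132 in rUUO samples. For both genes the UUO and rUUO samples lay above every sham sample. After UUO they rose by 1.43 ± 0.21 and 1.47 ± 0.20 on the log2 scale (adjusted p = 0.00168 and 0.000914, limma), and they were the 2 of 19 members tested that rose, with 0 that fell, beside 1.28% of all 13393 genes that rose and 0.702% that fell. In rUUO cells the same pair was higher than in sham (0.88 ± 0.20 and 1.07 ± 0.19, adjusted p = 0.0296 and 0.00699), 2 of 19 higher and 0 lower, beside 1.4% and 0.366% of all genes. The Col4a1 call in rUUO was lost in 7 of 8 fits leaving out 1 sample and held only without endothelial sham 2, its highest sham sample, so that 1 member was called in the others. The count of 2 was 1 with no filter, 1 when rescaled without mitochondrial genes and 0 with the replicate block. Between UUO and rUUO 0 of 19 members were called by limma (3 at an unadjusted p under 0.05), beside 0.0448% of all genes higher and 0.0149% lower. Type IV chains α1 and α2 with Col15a1 and Col18a1 make up most of endothelial collagen: the basement membrane class held 81.0% ± 3.2 (SD, n = 4) of collagen FPKM in sham, 85.9% ± 2.3 (n = 3) in UUO and 83.1% ± 3.7 (n = 4) in rUUO samples. Col15a1 (70.6, 98.2 and 108 FPKM in UUO) and Col18a1 (19.8, 23.2 and 35.6) were not called (0.23 ± 0.31 and 0.37 ± 0.31). Col4a3 was at 5.15, 8.37, 8.45 and 14.8 in sham and 2.83, 4.00 and 5.10 in UUO samples, with no overlap and no call (-0.98 ± 0.34, adjusted p = 0.189). Col4a4 was at 2.22 to 5.58 FPKM in sham and 0.85 to 1.38 in UUO samples, also without a call (-1.04 ± 0.39, adjusted p = 0.233). With all 12 groups in 1 limma fit, Col4a4 was called lower (-1.04, adjusted p = 0.0218). The 8 podocyte markers in these endothelial samples, none of them called, summed to 324 to 645 FPKM in sham and 325 to 347 in UUO. Most of that sum was Podxl, at 234 to 540 FPKM in sham and 244 to 257 in UUO samples. Podxl was lower in stromal sham samples (20.8 to 55.8 FPKM), so the sum cannot be read as podocyte content. Nphs1 was at 3.86 to 7.21 FPKM in endothelial sham and 0.97 to 3.94 in UUO samples. The 8 thick limb, distal and collecting duct markers summed to 178 to 904 FPKM in endothelial sham and 82.4 to 239 in UUO samples, 2 of 8 falling, and the 10 PT markers to 239.6 to 362 and 132 to 211, 1 of 10 falling. The PT marker sum is not split by gene here, so it cannot be read as PT content either. The part of podocytes and tubule cells in the endothelial collagen values was not tested. The fibrillar genes were low, Col3a1 at 10.7 to 18.2 FPKM in sham and 14.7 to 27.6 in UUO samples (0.67 ± 0.31, adjusted p = 0.355), while the stromal marker list summed to 94.0 to 136 and 63.0 to 83.7 FPKM.

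Col14a1 in macrophage sham samples was close to its stromal level, and in macrophages no member passed the test of change. Col14a1 was at 39.0, 41.2, 44.5 and 46.4 FPKM in macrophage sham, 24.4, 29.3, 35.8 and 36.9 in UUO and 40.6, 46.4 and 53.3 in rUUO samples. Its UUO samples were all below its sham and rUUO samples, and the changes were not called (-0.44 ± 0.18 and 0.56 ± 0.20, adjusted p = 0.2 and 0.551). The sham mean was 95.7% of that in stromal cells, whereas the other FACIT genes Col12a1 and Col16a1 were at 3.02% and 2.42%, the fibrillar genes at a median of 3.81% and the stromal markers at a median of 0.687% (0.337% to 8.84%) of their stromal level. The FACIT class made up 45.4% ± 10.5 (SD, n = 4) of macrophage collagen FPKM in sham samples. Col1a1 was at 3.71, 8.22, 8.91 and 11.02 FPKM in macrophage sham and 8.28, 13.4, 13.8 and 18.8 in UUO samples, Col3a1 at 4.15 to 18.4 and 15.0 to 38.6. In UUO the fibrillar genes had a median of 0.507% of their stromal UUO level and the stromal markers 1.93%. Col27a1 was at 1.39, 1.60, 3.95 and 5.52 in sham and 0.13, 0.21, 0.50 and 0.91 in UUO samples and just missed the threshold (-1.42 ± 0.40, adjusted p = 0.0586). In macrophages 0 of 14 members tested were called by limma after UUO (3 at an unadjusted p under 0.05), beside 2.86% of all 13332 genes that rose and 2.13% that fell. Between UUO and rUUO the count was 0 (1 unadjusted), beside 0% and 0% of all genes, and between rUUO and sham 0 (2 unadjusted), beside 1.89% and 1.55%. After UUO, 1 member (Col27a1) was called with a pseudocount of 0.1, 2 (Col27a1 at -1.42 and Col3a1 at 1.25) with all 12 groups in 1 fit, and 1 without macrophage sham 4.

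In PT cells 4 of 14 members tested rose after UUO, Col18a1 the most, beside 27.9% of all 11416 genes that rose and 4.91% that fell. The share of members was thus close to that of all genes. Col18a1 was at 3.29, 4.19 and 4.46 FPKM in PT sham, 21.9, 23.6, 23.7 and 31.2 in UUO and 14.3, 17.4 and 18.8 in rUUO samples. The 3 groups did not overlap, and the means differed 6.30-fold between UUO and sham (2.38 ± 0.22 (SE), adjusted p = 2.62e-06) and 4.23-fold between rUUO and sham (1.84 ± 0.24 (SE), adjusted p = 0.000185). Col4a1 was at 3.64, 4.90 and 8.79 in sham and 11.1, 11.9, 12.6 and 19.1 in UUO samples (1.16 ± 0.29, adjusted p = 0.00741), and Col4a2 at 4.09, 5.09 and 6.85 in sham and 8.35, 10.8, 11.3 and 16.0 in UUO samples (0.98 ± 0.27, adjusted p = 0.0148). Col4a5 was at 1.40, 1.57 and 1.87 in sham and 3.25, 4.02, 4.51 and 4.91 in UUO samples (0.98 ± 0.26, adjusted p = 0.012). These 4 genes were the members called, and 0 fell. Col4a3, Col4a4 and Col15a1, of the same class, were not called. Over all genes the median change was 0.51 and over the members 0.40. Quantile normalization took the all-gene median to -0.04, after which Col18a1 was still called (1.87) while Col4a1, Col4a2 and Col4a5 were not (0.65, 0.44 and 0.34, adjusted p = 0.0650, 0.202 and 0.384), and the 4 calls split into 1 higher and 3 lower (Col4a3 -1.16, Col4a4 -0.77 and Col8a1 -1.28). Rescaled without mitochondrial genes, 4 rose and 1 fell (Col4a3, -0.98, adjusted p = 0.0176). Without PT UUO 2, whose title is mixed, the same 4 members were called. Without PT sham 4 the count was 2, Col4a2 and Col4a5 being lost. Col4a3 was at 13.8, 15.9 and 15.9 in sham and 5.90, 7.56, 11.3 and 12.5 in UUO samples, apart and not called (-0.70 ± 0.28, adjusted p = 0.0686). Between UUO and rUUO 0 of 14 members were called by limma (1 at an unadjusted p under 0.05), beside 0.674% of all genes higher and 3.15% lower. Against sham, 1 of 14 was higher in rUUO (Col18a1) and 0 lower, beside 6.52% and 0.946% of all genes.

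Markers of other cells moved in the PT samples too. The 8 thick limb, distal and collecting duct markers summed to 39.3 to 50.9 FPKM in sham samples, 445 to 578 in UUO samples and 179 to 260 in rUUO samples, the same order as Col18a1, and 4 of 8 rose after UUO. The stromal markers summed to 6.55 to 9.29 FPKM in sham and 28.3 to 40.8 in UUO samples, 3 of 4 tested rising, and 3 of 4 podocyte markers tested rose. Of the stromal markers that rose, Gata3 had a mean of 8.41 FPKM in PT UUO and 0.99 in stromal UUO samples. Acta2 and Rgs5 had means of 9.79 and 8.55 in PT UUO and 413 and 220 in stromal UUO samples. Pdgfrb and Pdgfra were not tested, with means of 0.66 and 0.64 FPKM in PT sham and 0.98 and 0.75 in PT UUO samples. PT markers themselves summed to 2911 to 3882 FPKM in sham samples, 956 to 1352 in UUO samples and 1670 to 2247 in rUUO samples, 8 of 10 falling after UUO. The part of these cells in the PT collagen values was not tested. The fibrillar genes in PT cells, for which stromal cells are the known source, were not called (Col1a1 0.44 ± 0.32, Col3a1 0.71 ± 0.32). Col24a1 was too low to be tested, listed at 0 to 0.03 FPKM in PT sham and 0.16 to 2.38 in UUO samples.

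**Figure D5:**
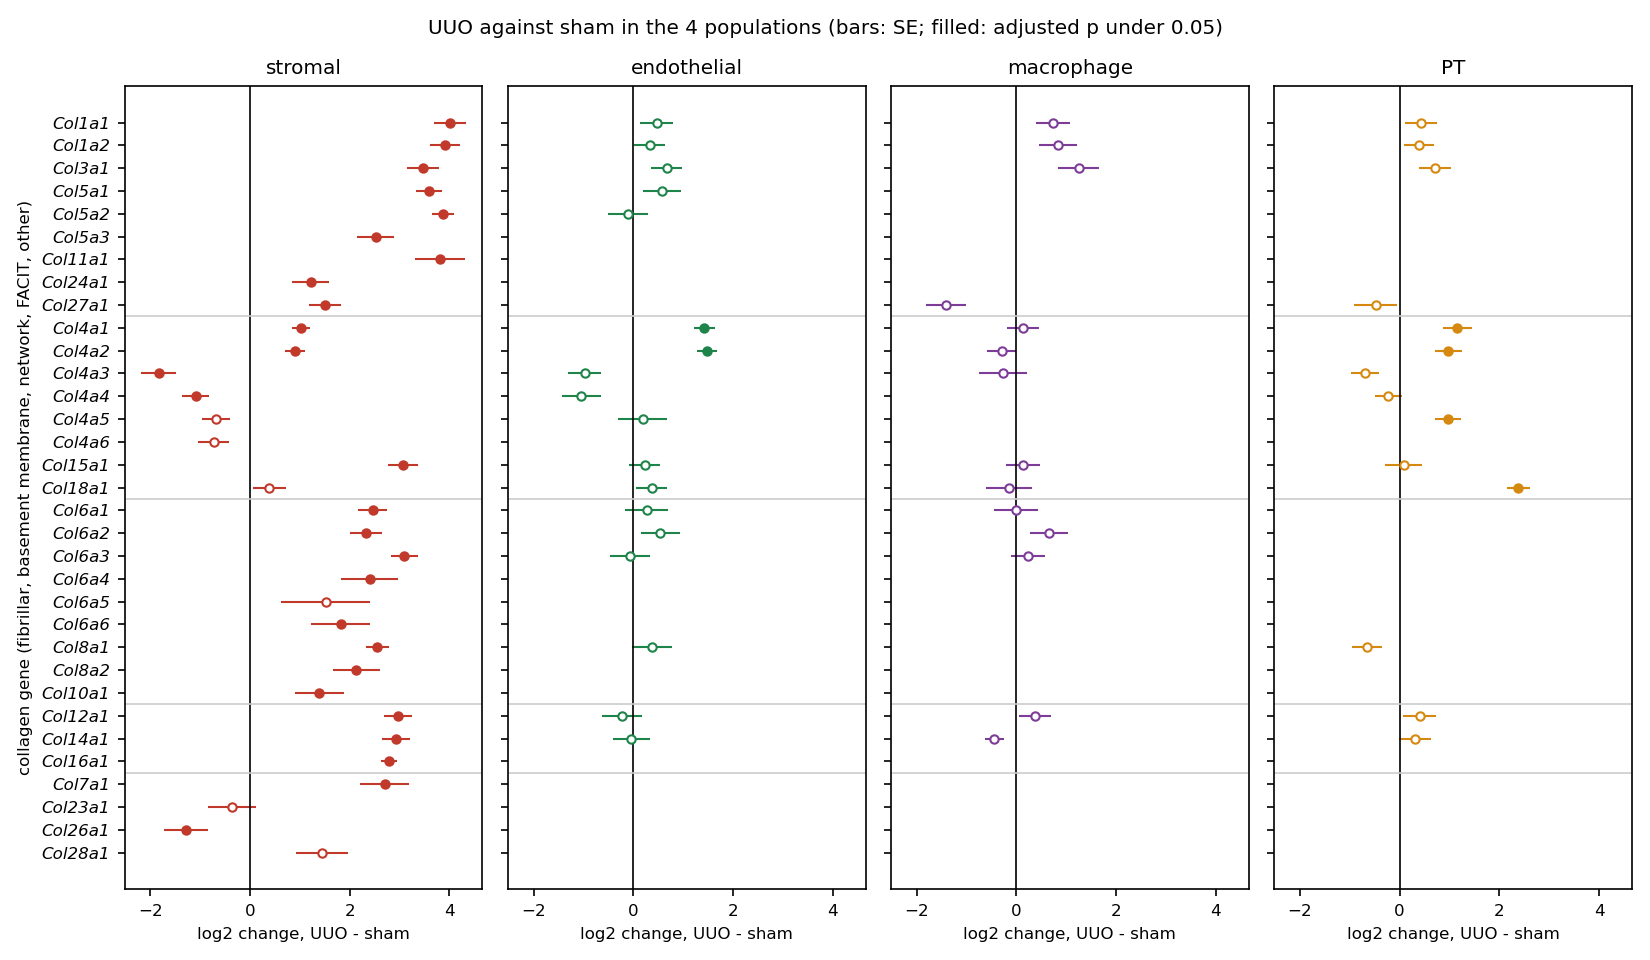
Log2 change of FPKM + 1 from sham to UUO for the 33 collagen genes tested in stromal cells (rows by class, separated by grey lines), shown in each population where they were tested there too, with SE bars and filled points for an adjusted p under 0.05. Filled points fill most of the stromal panel between 0.89 and 4.01, with Col4a3, Col4a4 and Col26a1 at the left, while the endothelial panel has filled points for Col4a1 and Col4a2, the PT panel for these, Col4a5 and Col18a1, and the macrophage panel none.

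The difference between populations was tested itself, as the UUO change in stromal cells minus that in another population, over 44 samples. The fit held 26 members whose mean FPKM across those samples was not below 1, a filter that high stromal values can meet alone, so the counts here cover the members that also passed it within the other population. Of 18 such members the change was larger in stromal than in endothelial cells for 12 and smaller for 0, beside 6.55% and 6.57% of all 14332 genes. Of 14 such members it was larger than in macrophages for 11 and smaller for 1 (Col4a3, -1.57 ± 0.53, adjusted p = 0.0353), beside 7.88% and 8.33%. Of 14 in PT cells it was larger for 8 and smaller for 2, beside 6.16% and 23%. The 3 tests share the stromal samples. The type I chains differed by 3.54 ± 0.49 (Col1a1) and 3.58 ± 0.49 (Col1a2) against endothelial cells, by 3.28 and 3.07 against macrophages and by 3.57 and 3.51 against PT cells. The 2 genes with a smaller change in stromal than in PT cells were Col18a1 (-1.998 ± 0.51 (SE), adjusted p = 0.00276) and Col4a5 (-1.66 ± 0.54 (SE), adjusted p = 0.0171). For Col4a1 and Col4a2 the changes in stromal and endothelial cells were not shown to differ (-0.41 ± 0.33 and -0.58 ± 0.31, adjusted p = 0.484 and 0.235), nor those in stromal and PT cells (-0.14 ± 0.33 and -0.09 ± 0.31). Col4a3 and Col4a4 were likewise not shown to differ between stromal and endothelial cells (-0.86 ± 0.55 and -0.05 ± 0.37). With quantile normalization, limma called Col4a2 as changing less in stromal than in endothelial cells (-0.96, adjusted p = 0.0129).

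Chains of type I and type IV collagen, and Col1a1 with Col3a1 of the separate type III molecule, were compared as ratios within a sample, in 12 exact two-sided permutation tests with Benjamini-Hochberg adjustment. Type I collagen holds Col1a1 and Col1a2 chains, and their FPKM ratio had medians of 0.804, 0.806 and 0.764 in stromal sham, UUO and rUUO samples. The Col4a1 to Col4a2 ratio had medians of 0.916, 0.991 and 0.984 in stromal cells and 1.12, 1.05 and 1.03 in endothelial cells. The lowest exact permutation p of these 9 comparisons was 0.0571. The ratio of Col1a1 to Col3a1 had a median of 0.402 in the sham samples, with a range of 0.338 to 0.460. The UUO samples had a median of 0.575 (range 0.496 to 0.680) and the rUUO samples one of 0.563 (range 0.538 to 0.655). Every UUO and rUUO sample was above every sham sample, with log2 differences of 0.54 and 0.54 and an exact permutation p = 0.0286 in each, the smallest that 4 against 4 samples can give. Adjusted over the 12 tests, both were 0.171, so 0 of 12 passed.

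The genes that make, mature and remove collagen were read in the same stromal samples. Of all genes 13.4% rose after UUO and 13% fell. Of the folding and modification genes 15 of 17 tested rose after UUO and 1 fell. P4ha3, a subunit of prolyl 4-hydroxylase that stabilizes the triple helix, was listed at 0 to 0.92 FPKM in sham and at 21.02 to 61.97 in UUO samples (4.99 ± 0.44), and P3h2, the prolyl 3-hydroxylase known for type IV collagen, was at 26.0 to 42.2 in sham and 2.21 to 11.8 FPKM in UUO samples, a fall (-2.38 ± 0.38). Like Col4a3 and Col4a4, P3h2 rose again from UUO to rUUO (1.79 ± 0.38, adjusted p = 0.0166). Of the genes of propeptide cleavage and fibril assembly 9 of 11 rose and 0 fell, led by Fn1, fibronectin (4.42 ± 0.32), and Bmp1, the procollagen C-proteinase (3.16 ± 0.27). All 7 crosslinking genes rose, led by the lysyl oxidases Lox, at 9.09 to 47.5 FPKM in sham and 222 to 579 in UUO samples (4.54 ± 0.41), and Loxl2 (3.20 ± 0.21). Of the degradation and uptake genes 6 of 7 rose and 0 fell, with Fap (3.68 ± 0.47) and Ctsk, cathepsin K (3.10 ± 0.32), at the top. Of the collagen receptors 3 of 7 rose, among them Itga11 (2.47 ± 0.35) and Itga2 (1.33 ± 0.40), and 1 fell.

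From UUO to rUUO, where 2.95% of all genes rose and 1.22% fell, the folding genes had 5 falls and 1 rise, P4ha3 falling by 3.00 (adjusted p = 0.00208), the assembly genes 2 falls, the crosslinking genes 2 falls with Lox at 75.8 to 102 FPKM (-2.32 ± 0.41), and the degradation and receptor genes 0 calls in either direction. Ctsk was at 53.6 to 86.9 FPKM in UUO and 48.7 to 82.0 in rUUO samples (-0.01 ± 0.32). Against sham, rUUO stromal cells had 13 of 17 folding, 8 of 11 assembly, 5 of 7 crosslinking, 6 of 7 degradation and 3 of 7 receptor genes higher, with 1 receptor gene lower, beside 11.6% and 5.57% of all genes. After UUO, 5 of 37 genes tested in these 5 lists rose in endothelial cells and 0 fell (1.28% and 0.702% of all genes), 2 of 35 rose and 2 fell in macrophages (2.86% and 2.13%), and 10 of 25 rose and 0 fell in PT cells (27.9% and 4.91%). Differences between populations were not tested for these lists.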

How the data were processed

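RNA of sorted kidney cells was amplified with a kit that is not described as stranded and sequenced as paired reads, and the authors deposited 1 table of FPKM per gene and sample. The submitters' processing notes name RSEM, Bowtie2, FastQC and DESeq2 and the build mm10, with no role or order. FPKM hold no read depth, so no count test was run. Of 46 value columns 44 were used. The other 2 both carry the name of 1 endothelial UUO sample, which does not say which sample each holds, and no column is named for PT sham 3. They were not analysed here.

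FPKM were analysed as log2(FPKM + 1), and fold changes on that scale understate those of low genes. Genes averaging 1 FPKM or more across the compared samples were fitted with limma 3.58.1 (R 4.3.3, empirical Bayes with trend), with Benjamini-Hochberg adjustment over all genes and a threshold of 0.05. High values in part of the compared samples can meet this filter alone, so counts of called members or list genes are descriptions. The 12 surgery contrasts were fitted within a population, the 3 sham contrasts over 15 samples, and the 3 differences between populations over 44 samples. Ratios were tested by exact permutation (scipy 1.17.1). The fit was tested on simulated data. Another pseudocount, no filter, quantile normalization, rescaling without mitochondrial genes, a minimum fold of 1.5, a block, a joint fit and leaving out each sample were tried.

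The members, their classes and the gene lists were chosen with earlier results of these data known. Any collagen gene could be named, values in each sample were given for 19 main chains and for some others (Col11a1, Col7a1 and Col26a1 among them), the 3 largest rises and falls of a comparison were named, and of the pathway lists the 2 genes with the largest change in stromal cells. Genes of a group listed at 0 may be failed estimates. A podocyte marker on the original list is not reported here.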

Additional observations from a re-analysis of the deposited data

Results flagged for a closer look

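Of 72 groups of 4 samples tested for a sample that stands apart (a gap to its nearest neighbour above 0.829 of the group's range), 7 did. In stromal cells these were Col1a2 in UUO 3 (2207.46 FPKM, the lowest), Col4a2 in sham 4 (76.14, the lowest), Col4a4 in rUUO 4 (7.92, the lowest), Col12a1 in rUUO 2 (105.31, the lowest), Col15a1 in sham 3 (113.05, the highest) and Col15a1 in UUO 3 (757.78, the highest). In endothelial cells it was Col4a2 in sham 4 (39.25, the lowest).

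The change from sham to UUO differed between stromal and endothelial cells for 18 of 26 members tested, between stromal cells and macrophages for 21 of 26, and between stromal and PT cells for 21 of 26, each by the limma test of the difference itself. Of all genes, 6.55% changed more and 6.57% less in stromal than in endothelial cells, 7.88% and 8.33% against macrophages, and 6.16% and 23% against PT cells. Of the 26 members, 8, 12 and 12 did not pass the filter on low values within endothelial cells, macrophages and PT cells, so these members entered the fit through other samples. Among the others the counts were 12 of 18, 12 of 14 and 10 of 14.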

How the results depend on the processing

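The count of collagen genes called in stromal cells from UUO to rUUO, 13, was 6 with no filter on low values and 3 with the replicate block, and 7 to 14 in fits leaving out 1 sample. The count in endothelial rUUO against sham, 2, was 1 with no filter, 1 when rescaled without mitochondrial genes and 0 with the replicate block, and 1 to 2 without 1 sample. The count in macrophages after UUO, 0, was 1 with a pseudocount of 0.1, 2 with all 12 groups fitted together and 0 to 1 without 1 sample, and that in PT cells after UUO, 4, was 2 to 5. Leaving out 1 sample gave 23 to 28 calls for stromal UUO against sham (27) and 16 to 19 for stromal rUUO against sham (20). The labels do not say whether same-numbered samples share a mouse, and the replicate block groups samples by that number. Same-numbered samples deviated together with correlations between -0.075 and 0.167, 1 of 35 and 2 of 57 over 0.1. Of differently numbered pairs, 0 of 126 and 0 of 184 were over 0.1. Median correlations were 0.013 and 0.009 for same-numbered and -0.004 and -0.003 for differently numbered pairs. Values this low cannot decide whether the numbers pair the samples. With the block the other counts stayed within 1.5 times, at 25 (from 27) and 15 (from 20) for stromal UUO and rUUO against sham. Rescaling without mitochondrial genes and quantile normalization left stromal rUUO against sham at 17 and 18 calls, all higher. For the chain ratios, 4 of 12 differences changed sign without 1 sample, ranging from -0.0283 to 0.182 for Col1a1 to Col1a2 after UUO, -0.0747 to 0.0478 for Col4a1 to Col4a2 in stromal cells and -0.0711 to 0.0805 for Col1a1 to Col3a1 from UUO to rUUO, and -0.126 to 0.0434 for Col4a1 to Col4a2 in endothelial cells after UUO. The cause was not tested. Depth in reads is unknown, which limits what can be said of genes near 0.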
